A study of Mus musculus with 15 samples.

Results

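The 35 genes described here encode the fibrillar and interstitial extracellular matrix and markers of the fibroblasts that make it, followed in endothelial cells that were sorted from mouse hearts by CD31, present on endothelium, and lack of CD45, present on leukocytes. They were chosen by name, with earlier results of the same libraries known, among them higher levels of matrix and fibroblast genes after aortic constriction, and they are 35 of the 23337 genes in the count table. All 35 were in the table and all passed the filter on low counts, which left 12471 genes for the tests. The mice had undergone transverse aortic constriction (TAC), in which a band on the aortic arch loads the left ventricle with pressure, or a sham operation, 4 weeks before. Of the 15 libraries, 4 came from KO TAC mice, 3 from KO sham, 5 from WT TAC and 3 from WT sham. KO mice were Cad5CreERT2+/+ STINGfl/fl, in which a tamoxifen-inducible Cre under the Cad5 (VE-cadherin) promoter of endothelial cells removes floxed STING, the adaptor that reports cytosolic DNA, and WT mice were Cad5CreERT2-/- STINGfl/fl, so that the floxed alleles were shared by all groups. Age, sex and any tamoxifen treatment of the mice were not given in the sources used here.

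Fibrillar collagens are triple-helical proteins that assemble into the tension-bearing fibrils of the interstitium. Small leucine-rich proteoglycans coat those fibrils and set their spacing, matricellular proteins tie them to cells and growth factors, and lysyl oxidases crosslink them. In the heart, resident fibroblasts marked by Pdgfra and Tcf21 make most of this matrix and make more of it under pressure overload, whereas endothelial cells are known mainly for the basement membrane under the vessel wall.

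Total counts ran from 1362346 in WT sham 133 to 15670319 in WT TAC 134. Tmem173, the gene for STING, stood at 19.6 to 30.4 CPM (counts per 1e6 counts of the library) in KO TAC and 17.3 to 31.4 CPM in KO sham libraries, against 70.4 to 82.1 CPM in WT TAC and 53.9 to 65.7 CPM in WT sham libraries, lower in every library labelled KO. The summed level of 17 endothelial identity genes was 17930 to 19150 CPM in KO TAC, 20280 to 22850 CPM in KO sham, 20540 to 22680 CPM in WT TAC and 19810 to 21510 CPM in WT sham libraries, and the 35 members together reached 1452 to 2071, 1175 to 1647, 2012 to 2391 and 1245 to 1383 CPM in the same groups. KO sham 350 and KO sham 348 stood apart from all other libraries on principal components 1 and 3 (scores of 115.3 and -77.14). KO sham 348 had the highest level of its group in 22 of the 35 genes, and KO sham 350 had no count for 9 of them. In a library with no count a level of up to 3 counts remains possible, which is 0.617 CPM in KO sham 350 and 2.26 CPM in WT sham 133, and this limit covers counting error only.

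The promoters of 3 members are printed because the patterns of these genes across the groups differed in part. RefSeq promoters (GRCm38.p6, 250 bases before to 50 after a start) were at hand for 24 of the 35 genes. The first below is Col1a2 at chr6:4505368-4505667, a fibrillar collagen gene that was lower in KO TAC than in WT TAC. Postn at chr3:54360857-54361156 was higher after TAC in both genotypes and, like Col1a2, lower in KO TAC than in WT TAC. Pdgfra at chr5:75152001-75152300 is the receptor gene that was lower in KO libraries after either surgery. All are on the plus strand, and for Postn, which has 2 starts in the table, the one farther downstream is shown. Capitals mark 4 short motifs on either strand, the TATA box (TATAAA), the CCAAT box (CCAAT), the GC box (GGGCGG) and the Smad-binding CAGA element (CAGACA), and these motifs do not overlap in the windows printed.
Col1a2: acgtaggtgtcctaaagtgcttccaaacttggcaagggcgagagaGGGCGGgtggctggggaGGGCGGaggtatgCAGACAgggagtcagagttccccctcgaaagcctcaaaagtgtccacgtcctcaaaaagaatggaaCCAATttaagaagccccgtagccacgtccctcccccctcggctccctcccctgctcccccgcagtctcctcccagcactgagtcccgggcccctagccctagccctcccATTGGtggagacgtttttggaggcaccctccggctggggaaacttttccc
Postn: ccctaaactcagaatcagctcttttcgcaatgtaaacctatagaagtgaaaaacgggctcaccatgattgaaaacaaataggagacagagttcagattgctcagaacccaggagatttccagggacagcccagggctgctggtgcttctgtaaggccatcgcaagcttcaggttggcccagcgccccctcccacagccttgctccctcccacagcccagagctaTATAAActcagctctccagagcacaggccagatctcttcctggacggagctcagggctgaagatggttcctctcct
Pdgfra: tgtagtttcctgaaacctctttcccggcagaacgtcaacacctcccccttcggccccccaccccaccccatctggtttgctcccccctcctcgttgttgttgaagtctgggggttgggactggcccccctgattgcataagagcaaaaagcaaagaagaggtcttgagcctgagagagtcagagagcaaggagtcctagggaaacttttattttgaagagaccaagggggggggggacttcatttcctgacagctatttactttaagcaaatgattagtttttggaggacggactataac
The Col1a2 window held 2 GC boxes, a CAGA element and 2 CCAAT boxes, of which the second lies on the minus strand. The Postn window held a TATA box starting at base 225, and none of these letters were found in the Pdgfra window. Over all starts of the 24 members in the table, the TATA box was present in 7 genes (29.2%, against 15.7% of 27025 mouse genes), the CCAAT box in 6 (25% against 41.1%), the GC box in 11 (45.8% against 38.2%) and the CAGA element in 8 (33.3% against 23.6%). These are letter matches and not evidence of binding.

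Compared per kilobase of exon, members of the elastic fibre and fibroblast marker groups were the most abundant. Fbln2, for fibulin-2, a basement membrane and elastic fibre protein, averaged 114 CPM per kb over the 15 libraries. Gsn, the actin-severing gelsolin that is abundant in cardiac fibroblasts, followed at 60.4, Fbn1, for fibrillin-1 of the microfibril, at 43.3 and the proteoglycan gene Bgn (biglycan) at 28.4 CPM per kb. Eln (elastin) had 26.8 and Dcn (decorin) 24.2 CPM per kb. The fibrillar collagen genes were much lower, with 6.89 CPM per kb for Col3a1, 5.59 for Col1a1 and 5.54 for Col1a2. Fmod, for fibromodulin, had the lowest mean of all members at 0.234 CPM per kb.

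**Figure D1:**
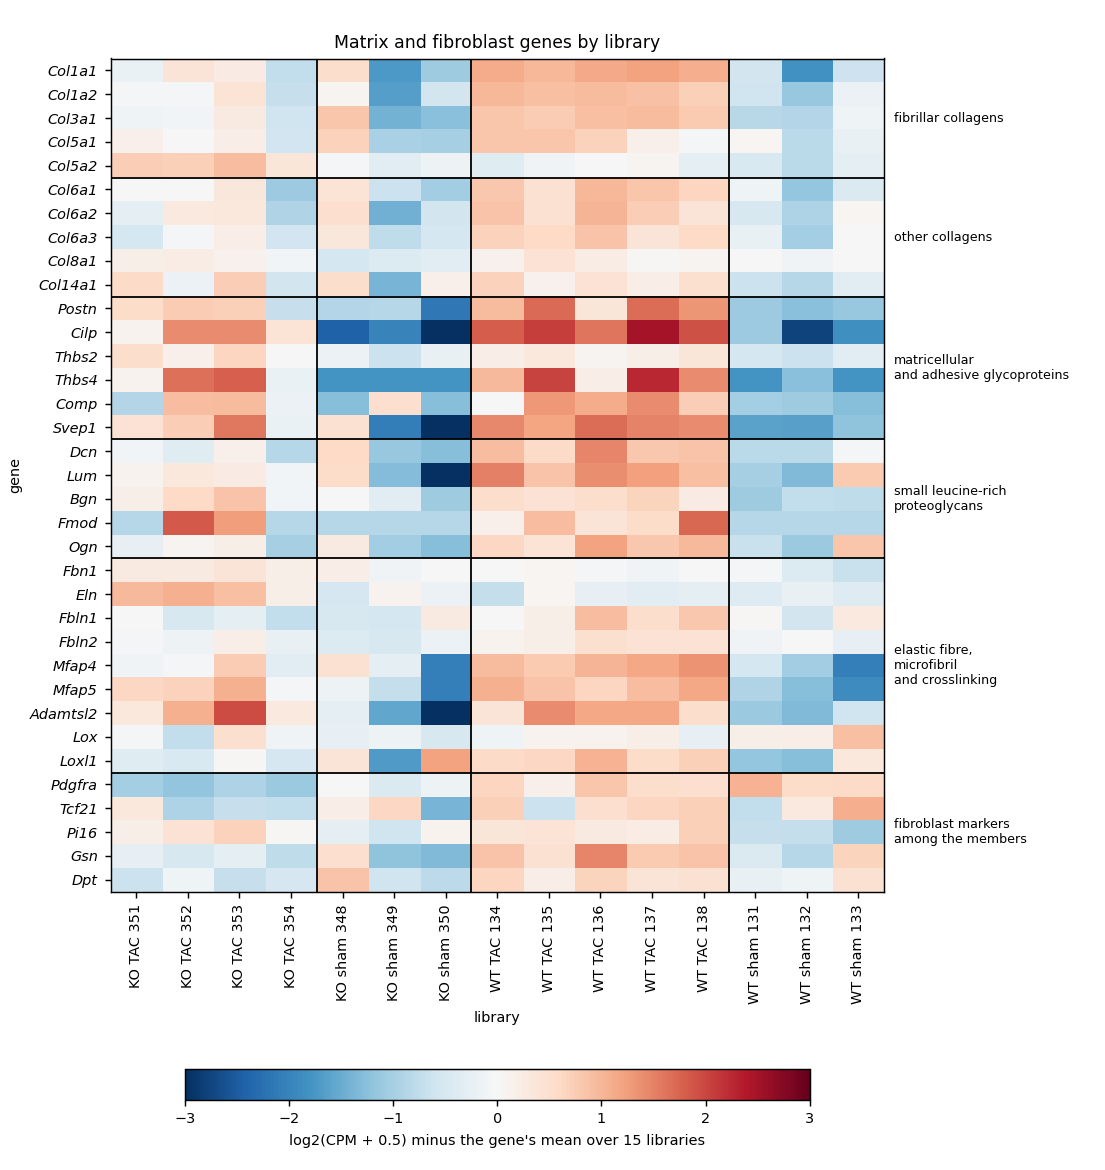
Heat map of the 35 genes (rows, by role) in the 15 libraries (columns, by group). Colour gives log2(CPM + 0.5) minus the mean of that gene over the 15 libraries. The WT TAC columns are warm in most rows, the KO TAC columns are intermediate, and KO sham 348 is warmer than KO sham 349 and 350 in the collagen and proteoglycan rows.

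After TAC, 17 of the 35 members were called higher and 0 lower in WT TAC against WT sham, where 1.6% of all genes tested were called higher and 0.986% lower. For KO TAC set against KO sham, 11 members were higher and Pdgfra alone was lower, where 4.65% of all genes were higher and 4.94% lower. The median log2 fold change of the members was 0.41 between KO TAC and KO sham and 1.35 between WT TAC and WT sham, against 0.006 and 0.004 over all genes tested. Because the genes were selected on earlier results of these TAC contrasts, their fold changes over sham are given as description without a p-value, and nothing is read from their count of calls. That count was 6 in WT hearts without WT sham 132, 9 without WT sham 131 and 11 without WT TAC 136, and 17 in KO hearts without KO sham 348. In such bulk libraries fewer cells of a type and less RNA per cell cannot be told apart. The genotype contrasts share libraries with those TAC contrasts, so their p-values are not independent of the choice either. A gene was called at an adjusted p below 0.05 in edgeR's quasi-likelihood test over all genes. Fold changes are log2 estimates ± SE, where the SE is the size of the estimate over the square root of the test's F statistic. Such an SE is approximate, and unreliable for an estimate near 0. Levels are CPM ± SD (n = 4 KO TAC, 3 KO sham, 5 WT TAC and 3 WT sham). Values per library follow the mouse numbers, 351 to 354 for KO TAC, 348 to 350 for KO sham, 134 to 138 for WT TAC and 131 to 133 for WT sham.

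**Figure D2:**
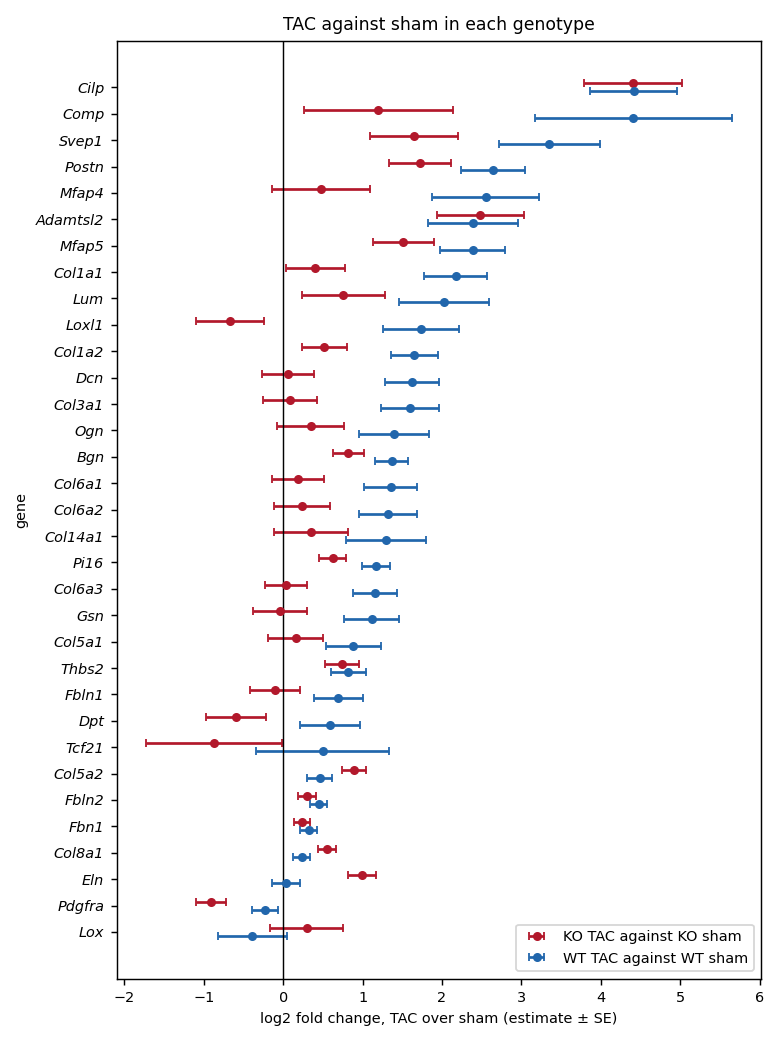
Log2 fold change of TAC over sham (x axis, estimate ± SE) for 33 members (y axis) in KO and in WT hearts. Thbs4 and Fmod are left out, since at least 1 sham group had no count for them. The WT estimate lies to the right of the KO estimate for most genes, and the order is turned round for Eln, Col5a2, Col8a1, Lox and Adamtsl2.

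Between the genotypes after TAC, 3 members were higher (Col5a2, Eln and Fbn1) and 16 lower in KO TAC than in WT TAC, where 14.8% of all genes tested were higher and 15.0% lower. The lower members were 3 of the 5 fibrillar collagens, 3 of the 5 other collagens, 2 of the 6 matricellular genes, 2 of the 5 proteoglycans, 3 of the 9 elastic fibre and crosslinking genes and 3 of the 5 fibroblast markers. The median log2 fold change over all 35 was -0.80, against -0.024 over all genes tested. Leaving out single libraries gave 8 lower members without KO TAC 354, 10 without KO TAC 351, and up to 18 without KO sham 348. Calls made under all 24 alternatives (9 other settings and each of the 15 libraries left out) were those of Col5a2, Eln, Fbln2 and Pdgfra. In sham hearts 1 member was higher (Fbn1) and 2 lower (Pdgfra and Col8a1) in KO than in WT, where 4.57% of all genes were higher and 4.63% lower, and the median was 0.19, against -0.005 over all genes.

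**Figure D3:**
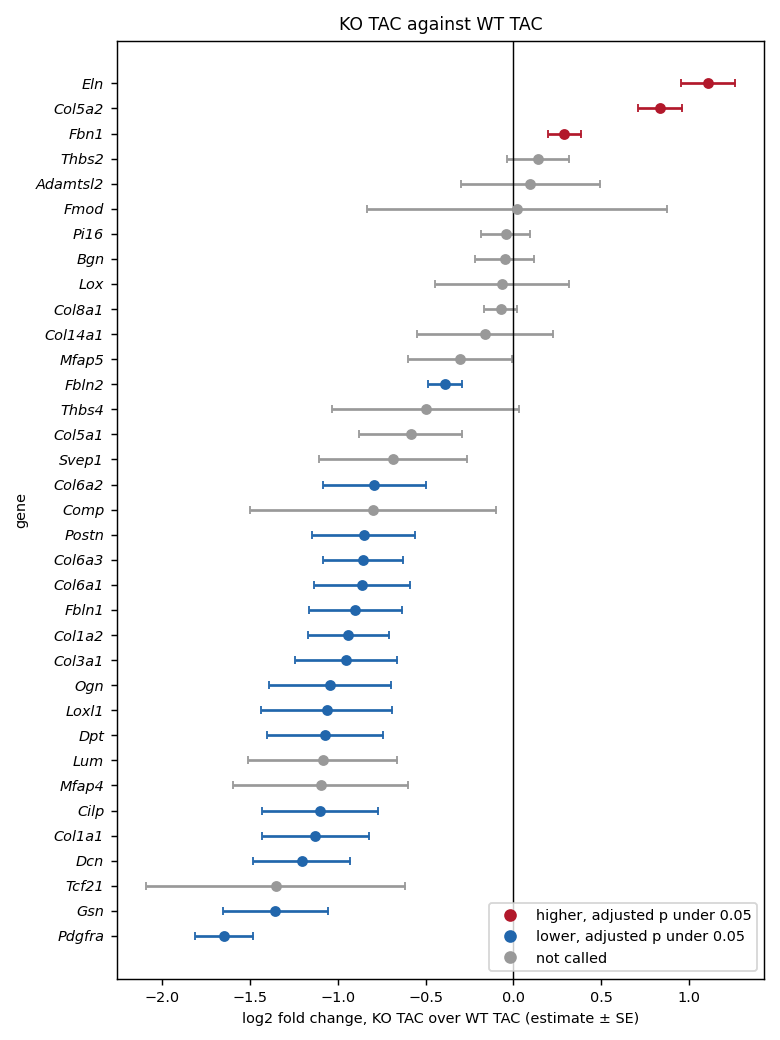
Log2 fold change of KO TAC over WT TAC (x axis, estimate ± SE) for the 35 members (y axis, ordered by the estimate). Red marks the 3 genes called higher, blue the 16 called lower and grey the 16 not called. Eln and Col5a2 lie near 1 and Pdgfra is lowest at -1.65.

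The genes of type I and type III collagen, the main fibrils of the heart's interstitium, were lower in KO TAC than in WT TAC hearts, while Col5a2, which encodes a chain of the type V collagen that nucleates fibrils, was higher. Col1a1, for the major chain of type I collagen, had 18.3, 27.6, 25.1 and 12.4 CPM in KO TAC and 30.8, 6.09 and 9.87 CPM in KO sham libraries. In WT TAC libraries it had 45.9, 42.5, 46.7, 49.7 and 45.5 CPM, against 14.2, 5.62 and 13.5 CPM in WT sham libraries. All 5 WT TAC libraries lay above all 4 KO TAC and all 3 WT sham libraries, whereas KO TAC overlapped with KO sham through KO sham 348. The Col1a1 log2 fold change was -1.13 ± 0.30 for KO TAC over WT TAC (edgeR, adjusted p = 0.0073), 0.41 ± 0.37 for KO TAC over KO sham and 2.17 ± 0.40 for WT TAC over WT sham.

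Col1a2, for the other chain of type I collagen, stood at 24.1, 23.7, 33 and 15.3 CPM in KO TAC, against 49.7, 46.7, 48.3, 46 and 41 CPM in WT TAC libraries. The sham libraries had 26.4, 7.61 and 16.9 CPM in KO and 16.2, 11 and 21.8 CPM in WT. The groups after TAC did not overlap, with a log2 difference of -0.94 ± 0.23 (edgeR, adjusted p = 0.00376). Col3a1, for type III collagen, had 30.4, 31.1, 40.2 and 21.7 CPM in KO TAC and 59.9, 12.2 and 13.6 CPM in KO sham libraries. In WT TAC it had 59.5, 56.2, 62.2, 64.5 and 57.9 CPM, against 18.3, 17.7 and 30.1 CPM in WT sham. The level of KO sham 348 was within the WT TAC range, and more than 4 times that of KO sham 349 and 350. KO TAC was lower than WT TAC, with a log2 fold change of -0.95 ± 0.29 (edgeR, adjusted p = 0.0158). The call was lost under DESeq2 (adjusted p = 0.0682) and without KO TAC 354 (0.057).

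Col5a2 was at 52.1, 51.8, 60.1 and 39.9 CPM in KO TAC and 29.9, 24.9 and 28 CPM in KO sham libraries. In WT TAC it was at 24.1, 28.8, 31, 33.2 and 26 CPM, against 22.4, 17.4 and 25.6 CPM in WT sham. Every KO TAC library was above every library of the other groups. The log2 fold change was 0.84 ± 0.13 for KO TAC over WT TAC (edgeR, adjusted p = 3.27e-05), 0.89 ± 0.15 for KO TAC over KO sham and 0.46 ± 0.16 for WT TAC over WT sham, and the first of these calls was made under all 24 alternative settings. Col5a2 and Col3a1 are neighbours on chromosome 1 (mm10), 24625 bases apart on opposite strands, and their calls between KO TAC and WT TAC went opposite ways. Col5a1, for the partner chain of Col5a2 in type V collagen, averaged 12.1 ± 2.76 CPM in KO TAC and 18.1 ± 4.88 CPM in WT TAC, a log2 difference of -0.59 ± 0.29 that was not called (edgeR, adjusted p = 0.139).

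**Figure D4:**
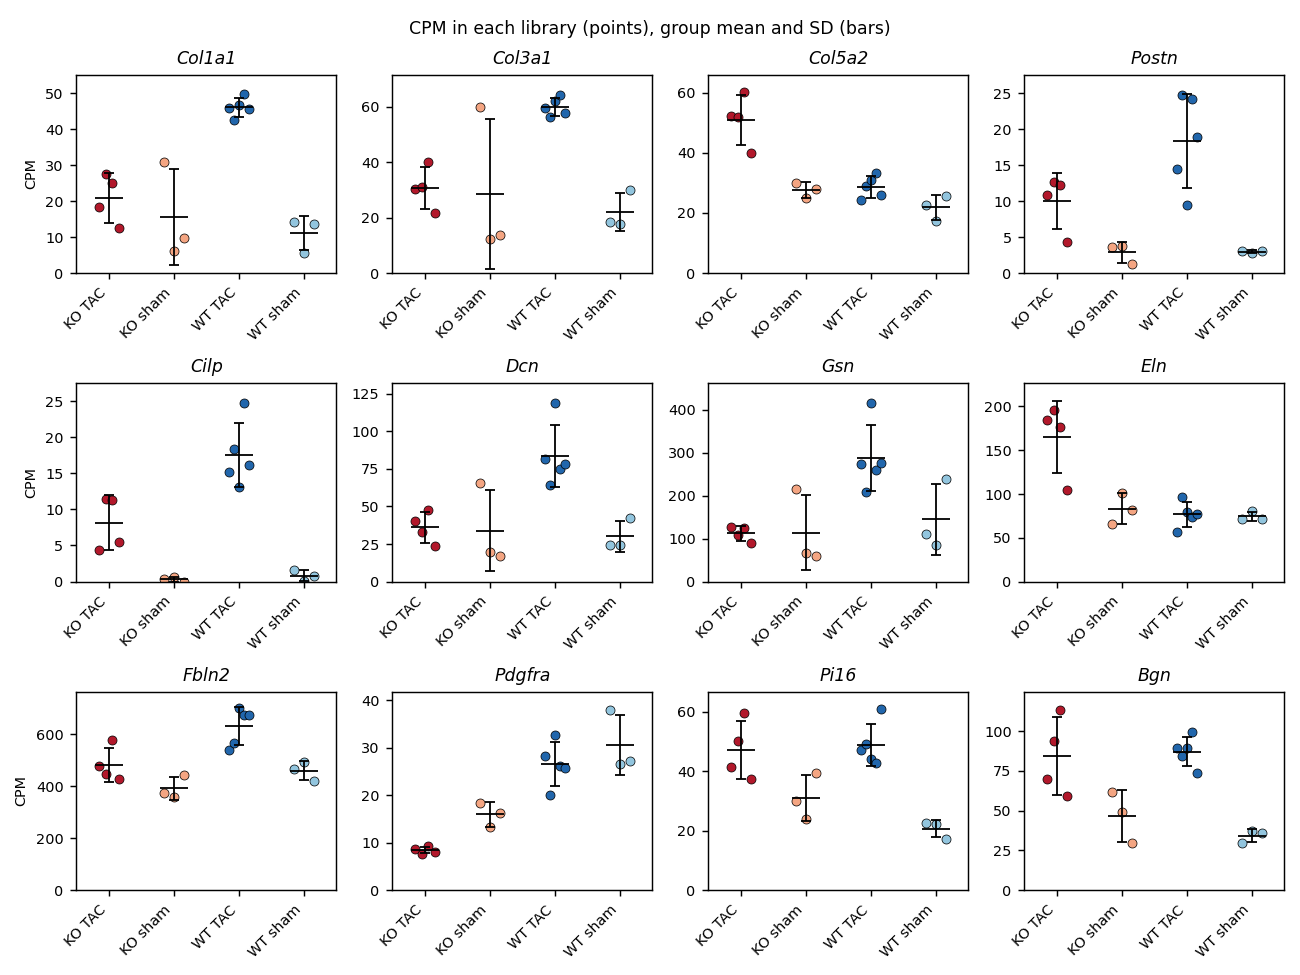
CPM of 12 members (1 panel each, y axis from 0) in each library of the 4 groups (x axis). Points are libraries and bars are the group mean ± SD. Col1a1, Col3a1, Dcn and Gsn are higher in WT TAC than in KO TAC, Col5a2 and Eln are highest in KO TAC, and Pdgfra is lowest in KO TAC.

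The 3 chains of type VI collagen, which forms beaded filaments around cells, were each lower in KO TAC than in WT TAC. Col6a1 had 12.6, 12.5, 15.9 and 5.56 CPM in KO TAC and 16.8, 7.81 and 5.76 CPM in KO sham libraries. Levels in WT TAC were 22.4, 17.3, 25.3, 22.5 and 19.6 CPM, against 11.4, 5.32 and 9.03 CPM in WT sham. The WT TAC libraries were above all others, and KO sham 348 was the highest of the KO libraries. The log2 fold change of Col6a1 was -0.86 ± 0.27 for KO TAC over WT TAC (edgeR, adjusted p = 0.0197), a call lost without KO TAC 354 (0.0757) or WT TAC 136 (0.0536). Col6a2 had 10.1, 15, 15.2 and 6.27 CPM in KO TAC, against 22.4, 16.9, 25.3, 20.7 and 16.1 CPM in WT TAC libraries, and 17.4, 4.16 and 8.23 CPM in KO sham, against 8.58, 6.21 and 12.8 CPM in WT sham. The log2 difference after TAC was -0.79 ± 0.29 (edgeR, adjusted p = 0.0456), and this call failed under 11 of 24 alternative settings, among them without KO TAC 351 (0.119), KO TAC 354 (0.155), WT TAC 134 (0.0904), WT TAC 136 (0.116), WT TAC 137 (0.0779), WT sham 131 (0.0564) or WT sham 133 (0.0515). For Col6a3 the levels were 8.85, 12.6, 14.8 and 8.55 CPM in KO TAC, against 21.1, 19.9, 23.9, 17 and 19.6 CPM in WT TAC libraries, and 16.4, 7.41 and 8.84 CPM in KO sham, against 10.9, 6.14 and 12.8 CPM in WT sham. The log2 difference after TAC was -0.85 ± 0.23 (edgeR, adjusted p = 0.00661), with no overlap between KO TAC and WT TAC.

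Col8a1, a short-chain network collagen that endothelial cells also make, was the most abundant of the non-fibrillar collagens per length, at 9.97 CPM per kb. It had 57.2, 58.9, 54.7 and 47.5 CPM in KO TAC and 34.7, 37.6 and 39.7 CPM in KO sham libraries, while WT TAC had 55.4, 68.5, 58.3, 51.4 and 53 CPM, against 50.7, 46.9 and 49.7 CPM in WT sham. The 3 KO sham libraries were the lowest of all 15. KO sham was lower than WT sham, with a log2 fold change of -0.40 ± 0.12 (edgeR, adjusted p = 0.0471). This call was lost in 21 of 24 alternative settings, with adjusted p of up to 0.147 where 1 library was left out (WT sham 131). KO TAC and WT TAC overlapped, with a log2 difference of -0.071 ± 0.094. The Col8a1 log2 fold change over sham was 0.555 ± 0.11 in KO and 0.23 ± 0.11 in WT hearts. Col14a1, for a fibril-associated collagen, was low throughout, averaging 3.55 ± 1.62 CPM in KO TAC, 2.86 ± 1.87 CPM in KO sham, 4.03 ± 0.692 CPM in WT TAC and 1.79 ± 0.433 CPM in WT sham libraries, and it was called in no comparison.

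Several of the largest fold changes of TAC over sham were in matricellular genes, in both genotypes. Postn encodes periostin, a protein of activated cardiac fibroblasts that promotes collagen assembly. It had 10.8, 12.7, 12.3 and 4.28 CPM in KO TAC and 3.69, 3.75 and 1.23 CPM in KO sham libraries. In WT TAC it had 14.5, 24.7, 9.47, 24.2 and 19 CPM, against 3.11, 2.73 and 3.01 CPM in WT sham. Every TAC library was above every sham library of either genotype, and KO TAC and WT TAC overlapped, since WT TAC 136 was within the KO TAC range. The log2 fold change was 1.72 ± 0.39 for KO TAC over KO sham, 2.64 ± 0.40 for WT TAC over WT sham and -0.85 ± 0.29 for KO TAC over WT TAC (edgeR, adjusted p = 0.0308). The last call was lost without KO TAC 351 (0.057), KO TAC 354 (0.11), WT TAC 135 (0.0919), WT TAC 137 (0.0926) or WT TAC 138 (0.054).

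Cilp, for cartilage intermediate layer protein, a matrix protein that cardiac fibroblasts also make, was near 0 in most sham libraries. Its levels were 4.31, 11.5, 11.3 and 5.42 CPM in KO TAC and 0.335, 0.609 and 0 CPM in KO sham libraries. WT TAC showed 15.1, 18.4, 13.2, 24.7 and 16.2 CPM, against 1.6, 0.148 and 0.752 CPM in WT sham. No TAC library overlapped with a sham library, and every KO TAC library was below every WT TAC library. Its log2 fold change over sham was 4.40 ± 0.61 in KO and 4.41 ± 0.54 in WT hearts. The difference was -0.008 (edgeR, adjusted p = 0.996), too near 0 for its SE to be reliable. KO TAC over WT TAC was -1.10 ± 0.33 (edgeR, adjusted p = 0.015), a call lost without KO TAC 351 (0.066), KO TAC 354 (0.0547) or WT TAC 137 (0.0581).

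Thrombospondin genes encode secreted glycoproteins that bind cells, calcium and growth factors. Thbs4 was without a count in all 3 KO sham libraries and had 1.36, 4.94, 5.52 and 0.998 CPM in KO TAC, while WT TAC had 2.91, 6.55, 1.5, 7.81 and 4.12 CPM, against 0, 0.222 and 0 CPM in WT sham. The highest sham value was that of WT sham 132, but 3 counts in WT sham 133, which had none, would be 2.26 CPM and above 2 KO TAC libraries and 1 WT TAC library. Set against a floor of 3 counts over the KO sham group, Thbs4 was at least 25.8-fold higher in KO TAC. Thbs2 averaged 12.3 ± 2.6 CPM in KO TAC and 7.43 ± 1.35 CPM in KO sham, and 11.2 ± 0.936 CPM in WT TAC and 6.59 ± 0.857 CPM in WT sham, with log2 fold changes over sham of 0.74 ± 0.22 and 0.82 ± 0.22. Comp (thrombospondin-5), known from cartilage and tendon, stayed at or below 2.73 CPM in all libraries. Svep1, a large adhesion protein of the extracellular matrix, averaged 10.4 ± 5.74 CPM in KO TAC and 3.06 ± 4.44 CPM in KO sham, and 16.8 ± 2.12 CPM in WT TAC and 1.8 ± 0.393 CPM in WT sham. Within KO sham, Svep1 ran from 0 in library 350 and 1.01 CPM in library 349 to 8.15 CPM in library 348. None of these 4 genes was called between KO TAC and WT TAC.

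Among the small leucine-rich proteoglycans, Dcn and Ogn were lower in KO TAC than in WT TAC, whereas Bgn overlapped between them. Dcn encodes decorin, which binds type I collagen fibrils and TGF-beta and is a standard fibroblast marker. It had 40.2, 33.1, 47.4 and 23.4 CPM in KO TAC and 65.3, 19.4 and 17.3 CPM in KO sham libraries. WT TAC levels were 81.7, 64.2, 119, 75 and 78.5 CPM, against 24.4, 24.2 and 42.1 CPM in WT sham. All WT TAC libraries were above all KO TAC and WT sham libraries, and KO sham 348 again fell inside the WT TAC range. KO TAC over WT TAC was -1.21 ± 0.28 on the log2 scale (edgeR, adjusted p = 0.00213). Bgn (biglycan, the close relative of decorin that also acts on innate immune receptors) had 69.9, 94.1, 114 and 58.9 CPM in KO TAC and 61.9, 49.4 and 29.4 CPM in KO sham libraries, and 89.1, 84.5, 89.1, 99.5 and 73.7 CPM in WT TAC, against 29.5, 37.2 and 36.1 CPM in WT sham. Its log2 fold change over sham was 0.82 ± 0.20 in KO and 1.36 ± 0.21 in WT hearts, and -0.05 ± 0.17 for KO TAC over WT TAC (edgeR, adjusted p = 0.855).

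Ogn (osteoglycin) had 5.1, 6.53, 7.05 and 2.85 CPM in KO TAC, against 9.69, 8.29, 14.9, 11.1 and 12.5 CPM in WT TAC libraries, and 7.48, 2.74 and 2.26 CPM in KO sham, against 3.68, 2.59 and 11.3 CPM in WT sham. The groups after TAC did not overlap, and the log2 difference was -1.05 ± 0.35 (edgeR, adjusted p = 0.0262), a call lost without KO TAC 351 (0.0667), KO TAC 354 (0.0905), WT TAC 136 (0.0806) or WT TAC 138 (0.0517). Lum (lumican), which like decorin limits fibril width, averaged 9.52 ± 1.19 CPM in KO TAC and 20.3 ± 4.15 CPM in WT TAC without overlap, and its log2 difference of -1.09 ± 0.42 missed the threshold (edgeR, adjusted p = 0.0576). Dcn and Lum are neighbours on chromosome 10, 47339 bases apart on the same strand. Fmod had no count in any of the 6 sham libraries, 0, 2.71, 1.64 and 0 CPM in KO TAC and 0.507, 1.2, 0.677, 0.818 and 2.47 CPM in WT TAC. Against a floor of 3 counts over each sham group it was at least 8.87-fold higher in KO TAC and at least 8.44-fold higher in WT TAC, although 2 of the KO TAC libraries held no count.

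Elastic fibre genes divided by member, with Eln and Fbn1 higher and Fbln1, Fbln2 and Loxl1 lower in KO TAC than in WT TAC. Eln, for elastin, the recoil protein of vessel walls, had 184, 196, 176 and 105 CPM in KO TAC and 66.1, 101 and 82.3 CPM in KO sham libraries. For WT TAC the values were 56.8, 96.9, 79.3, 73.6 and 77.7 CPM, against 71.6, 80.1 and 71.5 CPM in WT sham. All 4 KO TAC libraries were above the other 11, and the remaining groups overlapped. The log2 fold change was 1.11 ± 0.15 for KO TAC over WT TAC (edgeR, adjusted p = 1.15e-05), 0.99 ± 0.18 for KO TAC over KO sham and 0.036 ± 0.18 for WT TAC over WT sham. The call between KO TAC and WT TAC held under all 24 alternatives. Fbn1 had 512, 508, 549 and 473 CPM in KO TAC and 484, 393 and 426 CPM in KO sham libraries, and 425, 442, 407, 394 and 418 CPM in WT TAC, against 411, 316 and 266 CPM in WT sham. KO TAC lay above WT TAC in every library by a small margin, with a log2 fold change of 0.29 ± 0.092 (edgeR, adjusted p = 0.0198) that was not called without KO TAC 353 (0.0655). KO sham was above WT sham by 0.37 ± 0.11 (edgeR, adjusted p = 0.0427) with overlapping groups, and that call was lost in 14 of 24 alternatives, with adjusted p of up to 0.202 where 1 library was left out (WT sham 133).

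Fbln2, the most abundant member per kilobase, had 478, 446, 578 and 428 CPM in KO TAC and 373, 358 and 444 CPM in KO sham libraries. It had 540, 567, 701, 674 and 675 CPM in WT TAC, against 466, 494 and 421 CPM in WT sham. KO TAC 353 was within the WT TAC range and the other KO TAC libraries were below it. The log2 difference of -0.39 ± 0.10 between KO TAC and WT TAC was nearer to 0 than that of any other member called lower, and was called under all 24 alternatives (edgeR, adjusted p = 0.00418). Fbln1, another fibulin, had 6.78, 4.66, 5.52 and 3.85 CPM in KO TAC, against 6.71, 7.62, 13.2, 9.81 and 12.1 CPM in WT TAC libraries, and 4.69, 4.46 and 8.23 CPM in KO sham, against 6.88, 4.44 and 8.28 CPM in WT sham. Its groups after TAC overlapped at a single library of each, KO TAC 351 and WT TAC 134, with a log2 difference of -0.90 ± 0.27 (edgeR, adjusted p = 0.0133) and a call lost without KO TAC 354 (0.0511) or WT TAC 136 (0.0528).

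Lysyl oxidases crosslink collagen and elastin. Loxl1, whose product is needed for elastic fibre renewal, had 5.9, 5.5, 7.97 and 5.28 CPM in KO TAC, against 11.7, 12.2, 16.4, 11.4 and 12.9 CPM in WT TAC libraries, and 10.3, 2.03 and 18.5 CPM in KO sham, against 3.21, 2.88 and 9.78 CPM in WT sham. KO TAC and WT TAC did not overlap, and the log2 difference was -1.06 ± 0.37 (edgeR, adjusted p = 0.0343). DESeq2 did not make this call (adjusted p = 0.0959), and it was lost without KO TAC 351 (0.0795), KO TAC 352 (0.0926), KO TAC 354 (0.082), WT TAC 135 (0.0508), WT TAC 136 (0.0884) or WT TAC 138 (0.0544). The sham groups were wide, with library 350 the highest of all 15 and library 349 the lowest. Lox itself had 2.15, 1.12, 3.27 and 2 CPM in KO TAC, against 1.96, 2.41, 2.41, 2.54 and 1.79 CPM in WT TAC libraries, and 1.79, 1.93 and 1.44 CPM in KO sham, against 2.55, 2.59 and 4.51 CPM in WT sham, and was called in no comparison. The microfibril genes Mfap4 and Mfap5 averaged 1.78 ± 0.869 and 6.7 ± 2.13 CPM in KO TAC and 3.87 ± 0.657 and 8.35 ± 1.18 CPM in WT TAC, with no call between the genotypes. Adamtsl2, for a fibrillin-binding regulator of TGF-beta availability, averaged 10.8 ± 6.68 CPM in KO TAC and 1.74 ± 1.99 CPM in KO sham, and 10.1 ± 3.14 CPM in WT TAC and 2.21 ± 0.719 CPM in WT sham. Its log2 fold change over sham was 2.48 ± 0.55 in KO and 2.39 ± 0.57 in WT hearts.

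Pdgfra, among the fibroblast markers, had the largest log2 fold change in size of the 35 between KO TAC and WT TAC. It encodes the PDGF receptor alpha, by which cardiac fibroblasts are usually identified. Its levels were 8.69, 7.65, 9.3 and 8.13 CPM in KO TAC and 18.3, 13.2 and 16.2 CPM in KO sham libraries. Pdgfra was at 28.3, 20, 32.6, 26.2 and 25.7 CPM in WT TAC, against 37.9, 26.6 and 27.1 CPM in WT sham. All KO TAC libraries were below all KO sham libraries, and these were below every WT library, while WT TAC and WT sham overlapped. The log2 fold change was -1.65 ± 0.16 for KO TAC over WT TAC (edgeR, adjusted p = 1.58e-07) and -0.97 ± 0.20 for KO sham over WT sham (edgeR, adjusted p = 0.00327), and both calls held under all 24 alternatives. Over sham it was -0.91 ± 0.19 in KO and -0.23 ± 0.17 in WT hearts. WT and KO mice also came from separate ranges of mouse numbers, and an effect of that origin cannot be told apart from genotype.

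Gsn had 127, 108, 124 and 88.8 CPM in KO TAC and 216, 65.8 and 60.7 CPM in KO sham libraries. WT TAC stood at 274, 210, 417, 261 and 276 CPM, against 111, 84.1 and 239 CPM in WT sham. KO TAC lay wholly below WT TAC, with a log2 difference of -1.36 ± 0.30 (edgeR, adjusted p = 0.00153), while KO sham 348 and WT sham 133 were above the rest of their groups by more than 100 CPM. Dpt, for dermatopontin, a small protein that binds decorin, had 2.55, 3.82, 2.45 and 2.85 CPM in KO TAC, against 6.97, 4.95, 7.07, 5.72 and 6.05 CPM in WT TAC libraries, and 8.04, 2.64 and 2.26 CPM in KO sham, against 3.58, 3.84 and 6.02 CPM in WT sham. It did not overlap between KO TAC and WT TAC, and the log2 difference was -1.07 ± 0.33 (edgeR, adjusted p = 0.0171), a call lost without KO TAC 351 (0.054) or KO TAC 353 (0.0599). Pi16, a marker of adventitial fibroblasts, had 41.3, 50, 59.5 and 37.5 CPM in KO TAC and 29.8, 24 and 39.3 CPM in KO sham libraries, and 47.1, 49.2, 44.2, 42.7 and 60.8 CPM in WT TAC, against 22.5, 22.2 and 17.3 CPM in WT sham. Here KO TAC and WT TAC overlapped, with a log2 difference of -0.044 ± 0.14 (edgeR, adjusted p = 0.849). Tcf21, a transcription factor of fibroblast progenitors, stayed at or below 2.26 CPM in every library and was called in no comparison.

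Whether TAC acted differently on the members in KO and WT hearts was asked with the difference of the TAC effects, KO minus WT. That difference is made of the TAC contrasts known when the genes were chosen. Its p-values and the sign of its estimates are therefore not independent of the choice. By edgeR 0 of the 35 were called, where 0.69% of all genes tested were called in either direction. An unadjusted p below 0.05 was found for 15 of the 35 members and for 1819 of the 12471 genes tested. DESeq2 called 1 and voom 0, and 8 were called without KO sham 349. The median difference was -0.93 and 28 of the 35 estimates were below 0. Over all genes tested the median was 0.004, and 50.39% of the estimates were above 0. The largest estimates in size with an unadjusted p below 0.05 were those of Loxl1 at -2.40 ± 0.64 (edgeR, adjusted p = 0.085), Mfap4 at -2.07 ± 0.90 (0.289) and Col1a1 at -1.77 ± 0.53 (0.116). Eln stood on the other side at 0.96 ± 0.25 (edgeR, adjusted p = 0.08).

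The size of that difference depended on KO sham 348, and also on whether a fibroblast covariate, given further below, was fitted. Without that library the median over the members was -0.33 for the difference of the TAC effects and 0.97 for KO TAC over KO sham. For the difference, 6 members then had an unadjusted p below 0.05, beside 15 with all libraries. The share over all genes is not given for this fit. The number called higher in KO TAC against KO sham was 17 without it, and 8 with KO sham 349 as the only KO sham library, beside 11 with all 3. Col3a1 moved most among the genes of types I, III and V collagen, with a KO TAC over KO sham log2 fold change of 1.28 ± 0.21 without KO sham 348 and 0.085 ± 0.34 with it. The same values were 1.47 ± 0.33 and 0.41 ± 0.37 for Col1a1, 0.97 ± 0.26 and 0.061 ± 0.32 for Dcn, 3.97 ± 0.58 and 1.65 ± 0.55 for Svep1 and 2.28 ± 0.54 and 0.76 ± 0.52 for Lum. They were closer for Col5a2 (0.96 ± 0.17 and 0.89 ± 0.15), Eln (0.85 ± 0.20 and 0.99 ± 0.18) and Pdgfra (-0.78 ± 0.21 and -0.91 ± 0.19). Between KO sham and WT sham, Gsn was called lower without KO sham 348 (-1.06 ± 0.31, edgeR, adjusted p = 0.046) and not with it (-0.20 ± 0.38, adjusted p = 0.793). The median over the members in KO TAC against WT TAC was -0.80 with or without that library.

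A list of 24 fibroblast markers outside the members stands beside the results as a measure of fibroblast RNA in the sorted cells, and its part in them was not tested. All 24 had counts, and 17 passed the filter. Meox1 alone made up 48.4% of their summed level. This homeobox gene, which endothelial cells also express, averaged 186 ± 13.8 CPM in KO TAC, 109 ± 15.7 CPM in KO sham, 104 ± 11.2 CPM in WT TAC and 71.9 ± 8.31 CPM in WT sham libraries. The other 23 markers summed to 98.7 to 131 CPM in KO TAC and 202.7, 90.2 and 98.9 CPM in KO sham 348, 349 and 350, and to 144.5 to 196.8 CPM in WT TAC and 68.4 to 120 CPM in WT sham libraries. This sum without Meox1 was formed after the levels were seen. Like Col1a1, Col1a2 and Col3a1, it was higher in every WT TAC than in any KO TAC library and high in KO sham 348. With Meox1 included that order was lost in the summed CPM, though not in the mean log2 CPM. All 24 markers summed to 280 to 332.3 CPM in KO TAC and 238.5 to 293.9 CPM in WT TAC, which overlap, with means of 302 and 263.5 CPM. The mean log2 CPM was taken over the 17 markers that passed the filter, Meox1 included. It was 2.15 to 2.564 in KO TAC and 2.706 to 3.332 in WT TAC libraries. Its values were 3.331, 1.876 and 1.669 in KO sham 348, 349 and 350, and 1.911 to 2.518 in WT sham libraries.

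Of the 17 fibroblast markers tested, 3 were higher and 1 lower after TAC in KO hearts, 3 higher and 0 lower after TAC in WT hearts, and 1 higher and 5 lower in KO TAC against WT TAC. Of all genes tested, 4.65% were higher and 4.94% lower after TAC in KO hearts, 1.6% higher and 0.986% lower after TAC in WT hearts, and 14.8% higher and 15.0% lower in KO TAC against WT TAC. Mmp2, for a gelatinase of fibroblasts, was higher after TAC by 0.95 ± 0.23 in KO and 1.62 ± 0.24 in WT hearts on the log2 scale, and lower in KO TAC than in WT TAC (-0.53 ± 0.19). Medag (6330406I15Rik in the table) was called in the WT comparison, at 1.90 ± 0.47, beside -0.43 ± 0.43 in KO hearts. Of the 17 markers 0 were called by edgeR for the difference of the TAC effects, where 0.69% of all genes tested were called. An unadjusted p below 0.05 was found for 7 of the 17, and for 1819 of the 12471 genes tested. Pcolce, an enhancer of procollagen processing, had -0.26 ± 0.16 in KO and 0.62 ± 0.17 in WT hearts and was called in neither. With the mean log2 CPM of this list, Meox1 included, as a covariate, 14 members were higher in KO TAC against KO sham, 7 higher in WT TAC against WT sham and 7 lower in KO TAC against WT TAC, and Col1a1 (0.105), Col3a1 (0.173), Col6a1 (0.248), Col6a2 (0.531), Col6a3 (0.0907), Postn (0.0665), Ogn (0.327), Loxl1 (0.0947) and Dpt (0.195) were no longer called there by edgeR (adjusted p in brackets). The covariate itself differed between the groups.

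**Figure D5:**
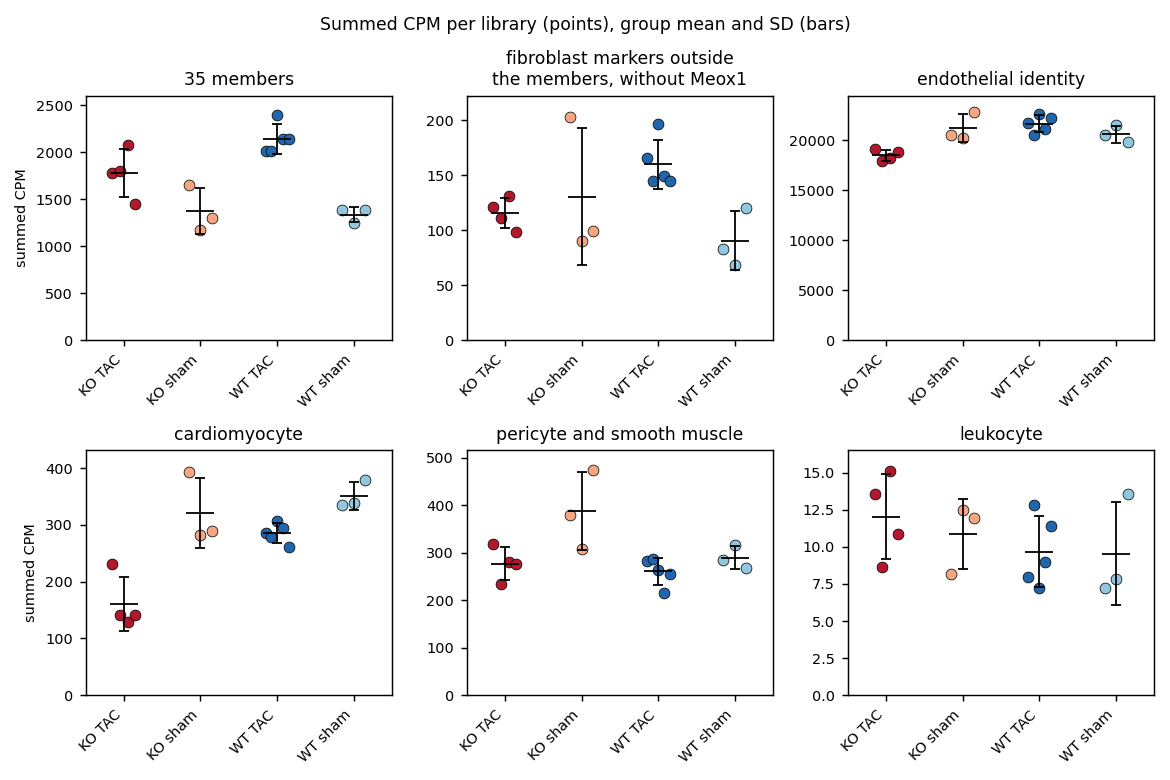
Summed CPM of the 35 members and of 5 marker lists (1 panel each, y axis from 0) in each library of the 4 groups (x axis). Points are libraries and bars the group mean ± SD. The fibroblast sum outside the members, drawn without Meox1, is high in WT TAC and in KO sham 348, and the cardiomyocyte sum is lowest in KO TAC.

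Summed markers of other cells differed between the groups as well. The 16 cardiomyocyte genes, with 50.9% of their sum in Ttn, summed to 129 to 230.5 CPM in KO TAC, 282 to 393 CPM in KO sham, 261 to 307.5 CPM in WT TAC and 336 to 378.5 CPM in WT sham libraries. With their mean as a covariate 2 members were lower in KO TAC against WT TAC, Fbln2 and Pdgfra, in place of 16. Fbn1 was then no longer called higher (edgeR, adjusted p = 0.142), while Col5a2 and Eln still were. This covariate differed between KO TAC and WT TAC as well, and its part was not tested. Leukocyte genes summed to 8.67 to 15.1 CPM in KO TAC and 7.22 to 12.8 CPM in WT TAC, which overlap. Pericyte and smooth muscle genes summed to 235 to 317.5 CPM in KO TAC, 309 to 473 CPM in KO sham, 215 to 286 CPM in WT TAC and 267 to 316 CPM in WT sham. The valve and cartilage-like list, mostly Prg4 (lubricin, 78.7%), summed to 26.5 to 31.7 CPM in KO TAC and 33.7 to 41.4 CPM in KO sham, and to 62 to 83 CPM in WT TAC and 40.6 to 50.6 CPM in WT sham. Endocardial genes, with 84.4% of the sum in Cgnl1, summed to 161 to 210 CPM in KO TAC, 120 to 141 CPM in KO sham, 113 to 129.5 CPM in WT TAC and 91 to 130 CPM in WT sham. The epicardial list was 98.6% Wt1, with Msln and Lrrn4 at 0 in all libraries, and averaged 135, 94.6, 81.9 and 78.7 CPM in the same order. The lymphatic and the Schwann cell lists averaged 361 and 28.9 CPM in KO TAC, 370.5 and 25 CPM in KO sham, 375 and 27.1 CPM in WT TAC and 333 and 25.8 CPM in WT sham. Of 17 endothelial identity genes 1 was higher and 9 lower in KO TAC than in WT TAC (14.8% and 15.0% of all genes tested), among them the receptor genes Tek (-0.99 ± 0.066), Kdr (-0.47 ± 0.063) and Tie1 (-0.64 ± 0.07).

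A list of basement membrane genes that endothelial cells are known to make mostly had another direction than Col1a1, Col1a2 and Col3a1 between KO TAC and WT TAC. Of 13 basement membrane genes, 10 were higher and 0 lower in KO TAC than in WT TAC (14.8% and 15.0% of all genes tested), with a median log2 fold change of 0.37. After TAC 9 were higher in KO and 6 in WT hearts (4.65% and 1.6% of all genes tested). Col18a1, for the collagen from which endostatin is cleaved, had a log2 fold change over sham of 0.97 ± 0.12 in KO hearts, where it was called, and 0.42 ± 0.12 in WT hearts, where it was not, and of 0.98 ± 0.10 for KO TAC over WT TAC. Col4a2, for type IV collagen, was higher over sham by 0.62 ± 0.083 and 0.53 ± 0.08 in the same order, and Nid2, for nidogen-2, was higher in KO TAC than in WT TAC by 1.26 ± 0.10. Their direction between KO TAC and WT TAC was that of Col5a2, Eln and Fbn1. It was not shared by all such matrix genes. Fbln2, for a basement membrane and elastic fibre protein, was lower (-0.39 ± 0.10), and Col8a1, which endothelial cells also make, was not called (-0.071 ± 0.094).

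Of 16 genes of the activated fibroblast tested, 9 were higher, 0 lower and 7 not called in KO TAC against WT TAC, where 14.8% of all genes tested were higher and 15.0% lower, among them Tnc (tenascin-C) at 2.37 ± 0.19 and Fn1 (fibronectin) at 1.18 ± 0.10. Sparc, for the collagen-binding osteonectin, held 75.5% of this list's summed level and is also on the basement membrane list. Ctgf, now Ccn2, was higher after TAC by 0.85 ± 0.15 in KO and 1.08 ± 0.16 in WT hearts. Acta2 and Tagln, contractile genes of myofibroblasts and smooth muscle that stand on the pericyte list as well, had log2 fold changes of 1.18 ± 0.30 and 1.85 ± 0.31 for KO TAC over WT TAC and of -1.25 ± 0.34 and -1.81 ± 0.34 for WT TAC over WT sham, all of them called. Acta2 was chosen after its values were seen.

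Of 27 genes for collagen synthesis, folding and processing, 3 were higher and 0 lower after TAC in KO hearts, 1 higher and 0 lower after TAC in WT hearts, and 4 higher and 6 lower in KO TAC against WT TAC. Over all genes tested the shares were 4.65% higher after TAC in KO hearts, 1.6% higher after TAC in WT hearts, and 14.8% higher and 15.0% lower between KO TAC and WT TAC, and these last shares hold beside the other lists of this paragraph too. Plod2, a lysyl hydroxylase whose product favours stable crosslinks, was higher in KO TAC than in WT TAC (0.82 ± 0.12), while Plod1 was lower (-0.30 ± 0.064). Of 23 other proteoglycan and elastic fibre genes 5 were higher and 4 lower in KO TAC than in WT TAC, with Ltbp3 and Thbs1 at 0.96 ± 0.14 and 1.29 ± 0.21 and Ecm2 at -1.06 ± 0.085. Of 7 other collagens tested 2 were higher and 0 lower. Of 20 genes of the TGF-beta pathway, the main inducer of fibrillar collagen, 5 were higher and 4 lower in KO TAC than in WT TAC, with the integrin gene Itgb5 at -1.03 ± 0.18. Pmepa1, a feedback inhibitor of the pathway, was higher after TAC by 0.79 ± 0.14 in KO and 0.92 ± 0.14 in WT hearts.

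Levels within a library were also set against Dcn, a fibroblast marker among the members. This description was chosen with the values known. Of the 34 other members, 6 had a higher ratio to Dcn in every KO TAC library than in any KO sham library, namely Cilp, Thbs4, Svep1, Lum, Mfap5 and Adamtsl2, and 1, Dpt, a lower one, where 0.706% of all other genes tested had a higher and 0.986% a lower ratio. In WT hearts 5 had a higher ratio without overlap after TAC, Cilp, Thbs4, Comp, Svep1 and Fmod, and 8 a lower one, Col5a2, Col8a1, Eln, Fbln1, Fbln2, Lox, Pdgfra and Dpt, where 0.128% of all other genes had a higher and 82.3% a lower ratio, and Dcn itself was higher in every WT TAC than in any WT sham library. Some of these genes had no count in a sham library, and 3 counts there would bring the ratio of Thbs4 in both genotypes, and of Comp and Fmod in WT, above that of the lowest TAC library. Col1a1, Col1a2, Col3a1 and the Col6 genes overlapped between TAC and sham in both genotypes on this ratio.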

How the data were processed

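The libraries were made with a TruSeq kit from RNA that an RNeasy Plus kit had yielded, per the labels' protocols. HISAT2 2.1.0 served as aligner and mm10 as mouse build, per the submitters' processing notes, and the authors deposited raw counts per gene from featureCounts 1.6.2 with strand setting 2, per the file headers, so that overlapping genes on opposite strands are counted apart. Multimapping reads were not counted, which lowers genes with near-identical copies. All 15 count columns were used and 6512 of the 23337 genes had no count in any library.

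The members, the 16 other gene lists (257 entries, of which 247 matched by symbol and 9 by synonym) and the tests were chosen with earlier results of these data known. Per-library values are given for 25 members: the most abundant per kilobase in each role, those called between genotypes and those with the largest and smallest changes. The other 10 are given as group means, and from each other list come genes with the smallest p after TAC. Counts were normalised with TMM factors (0.9599 to 1.031), filtered with filterByExpr (12471 genes kept) and fitted in a single model of the 4 groups in edgeR 4.0.16 (R 4.3.3) with the quasi-likelihood test, 11 residual degrees of freedom and Benjamini-Hochberg adjustment within each comparison over all genes tested. The test was checked on simulated counts. CPM use the TMM-scaled library sizes. Total counts of 1362346 to 15670319 set the precision. Each library carries its own number, taken here as that of a mouse, and p-values are judged against the spread between libraries. All libraries carry the same batch label. DESeq2 1.42.0 and limma 3.58.1 (voom) were alternatives.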

Additional observations from a re-analysis of the deposited data

Results flagged for a closer look

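Tcf21, the transcription factor of fibroblast progenitors, had 2 libraries far from the rest of their group. KO TAC 351 held 1.116 CPM, where the other KO TAC libraries held 0.1865 to 0.3067 CPM. WT TAC 135 held 0.3343 CPM, where the other WT TAC libraries held 1.353 to 1.649 CPM. Each stood farther from its group than Dixon's 95% limit allows. Across the members 70 groups were tested in this way, and chance alone flags about 5% of groups. At these levels each value rests on few counts.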

How the results depend on the processing

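The counts of members called were recomputed under 9 other settings and with each of the 15 libraries left out. In WT TAC against WT sham 27 members were higher by voom, 26 with a fit of only the groups compared and 7 with the fibroblast list as a covariate, and 6 to 23 when single libraries were left out. For KO TAC against KO sham the higher members numbered 3 by voom, 5 with only the groups compared and 6 with the cardiomyocyte list as covariate (8 to 17 leaving out single libraries), and the lower ones 0 by voom, with the cardiomyocyte list and with KO sham 349 as the only KO sham library (1 to 2). In KO TAC against WT TAC 7 members were lower with the fibroblast and 2 with the cardiomyocyte list as covariate, and 8 to 18 lower and 2 to 3 higher leaving out single libraries. Between KO sham and WT sham 0 members were higher by voom, with only the groups compared, with the fibroblast covariate and with KO sham 349 alone (0 to 3). There, 1 was lower under DESeq2, RLE factors, no filter, a filter of 5 CPM, voom, only the groups compared, the cardiomyocyte covariate and KO sham 349 alone (1 to 2). For the difference of the TAC effects DESeq2 called 1 higher, and without a filter 1 was higher and 4 lower, with 0 to 1 higher and 0 to 7 lower leaving out single libraries. With KO sham 349 alone that difference was 0.00 for Col1a2 and 0.16 for Col6a2, in place of negative values. Where a covariate or a smaller number of libraries did not make the change by construction, the cause was not tested. Calls between KO TAC and WT TAC held in 395 of 456 gene and setting pairs, and 61 were lost. No paired analysis was possible because the mouse numbers differ between all groups. Members at or below the floor of 3 counts in most sham libraries, such as Thbs4, Fmod and Comp, are limited by depth, above all in WT sham 133.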
